A study of Mus musculus with 10 samples.

Results

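The 10 genes described here encode the mouse MHC class II chains, their peptide editors and the invariant chain. They were chosen by symbol from the 26434 gene symbols in the deposited RNA tables, and all 10 had a level of at least 5 TPM (transcripts-per-million units) in 1 library. The classical chains are H2-Aa, H2-Ab1, H2-Eb1 and H2-Eb2, the editors are H2-DMa, H2-DMb1, H2-DMb2, H2-Oa and H2-Ob, and Cd74 encodes the invariant chain. Of these, 9 lie together on chromosome 17 and Cd74 lies on chromosome 18. For chromosome 17, peaks of open chromatin in the window chr17:34200001-34600000 and the contacts of the 2 Mb bin from 34 to 36 Mb (both mm9) were also read.

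The study compared naive B cells with plasma cells of C57BL/6 mice in 3 assays analysed here, with 1 library of each cell type per assay. RNA-seq measured transcript levels, ATAC-seq mapped chromatin open to a transposase, and tethered conformation capture (TCC) counted contacts between pieces of the genome. The naive RNA and ATAC libraries came from wild-type spleen cells sorted as CD23+IgD+, and the naive TCC library from CD23+ cells of wild-type spleens purified on magnetic columns. The plasma cell ATAC library is labelled as wild-type B220- cells sorted from bone marrow. The plasma cell RNA library carries conflicting labels. Its source line and its genotype describe wild-type cells activated in culture and then sorted, whereas its extraction protocol describes CD138+B220- bone marrow cells. The plasma cell TCC library is named as sorted directly from the animal, but its protocols describe CD23+ cells of Blimp-GFP mice stimulated with 10 µg/ml LPS for 3 days and sorted as GFP+. The plasma cells of the 3 assays may therefore be of different origin, and no value of one assay was paired statistically with another. Whether any library pooled several mice is not given in the sources used here. With 1 library per cell type no difference has a replicate check, so no test was made and no p-value is given.

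MHC class II molecules are pairs of an alpha and a beta chain that show peptides from endosomes to CD4+ T cells. The invariant chain Cd74 binds new pairs in the endoplasmic reticulum, blocks their groove and directs them to endosomes, where proteases trim it to a short stub. H2-DM, a pair of H2-DMa and a DM beta chain, removes the stub and exchanges peptides, and H2-DO, a pair of H2-Oa and H2-Ob, inhibits H2-DM, above all in B cells. In these promoters the factors of the RFX and NF-Y families bind the X and Y boxes and recruit the coactivator Ciita, without which class II transcription is very low. B cells present antigen to helper T cells, and plasma cells are known to shut down Ciita under the repressor Blimp-1, the product of Prdm1. C57BL/6 mice carry a defective H2-Ea gene, so that H2-Eb1 has no partner chain for I-E at the surface. H2-Ea-ps was not among the symbols of the RNA tables.

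Printed here are 7 promoter stretches of members, to show where the Y box core lies and in which of them an X box core precedes it. Each runs from 50 bases before the Y box core to the end of a 20-base piece that starts with it, 5′ to 3′ on the strand of the gene, with coordinates on GRCm38.p6 from RefSeq. The capitals mark the Y box core (ATTGG) and, where it was found, the X box core (AGNNAC followed directly by NNATG, with N for any base). These coordinates belong to another build than the mm9 peaks below and must not be set against them.
H2-Aa (chr17:34287852-34287921, minus strand): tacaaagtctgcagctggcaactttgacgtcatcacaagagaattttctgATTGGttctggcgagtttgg
H2-Eb1 (chr17:34305758-34305827, plus strand): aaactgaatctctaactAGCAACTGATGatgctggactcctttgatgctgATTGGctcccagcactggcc
H2-Eb2 (chr17:34325525-34325594, plus strand): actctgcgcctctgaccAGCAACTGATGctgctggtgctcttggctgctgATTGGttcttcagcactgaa
H2-DMb1 (chr17:34153080-34153149, plus strand): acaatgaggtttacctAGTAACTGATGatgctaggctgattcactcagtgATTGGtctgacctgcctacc
H2-DMb2 (chr17:34145109-34145178, plus strand): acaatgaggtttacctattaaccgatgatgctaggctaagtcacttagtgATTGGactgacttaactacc
H2-Ob (chr17:34238798-34238867, plus strand): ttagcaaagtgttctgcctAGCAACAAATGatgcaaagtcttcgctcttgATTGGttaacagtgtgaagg
H2-Oa (chr17:34092286-34092355, plus strand): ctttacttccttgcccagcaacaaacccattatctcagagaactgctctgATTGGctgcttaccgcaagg

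The RefSeq table used here held 9 promoter windows for 8 of the 10 members, from 250 bases before the start to 50 after it. ATTGG was found on either strand in 8 of these 9 windows, and in 37.4% of all 32851 windows of the same length, so its presence alone is common. The X box core was found in 5 of the 9 and in 3.09% of all windows. An X box core that starts 25 to 40 bases before a Y box core, on the same strand, was present in the windows of H2-DMb1, H2-Ob, H2-Eb1 and H2-Eb2 and in 18 windows overall (0.0548%). That spacing was chosen after the sequences were seen. In H2-DMb1, H2-Eb1 and H2-Eb2 the X core began 34, 33 and 33 bases before the Y core, and in H2-Ob 31 bases before it. H2-DMa had 2 windows, and 1 of them held ATTGG, 198 bases before its start. The stretches of H2-Aa and H2-DMb2 hold ATTGG without these exact X box letters. H2-Oa holds its Y core 43 bases before the start and the X letters 141 bases before it. The motif letters do not overlap each other, and a match describes letters only.

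RNA levels are given in TPM, which corrects for transcript length and library size, so that levels of different genes can be compared. Where a gene has a pair of levels, the naive library comes first. Immunoglobulin genes took 5.03% of all TPM in the naive library and 34.8% in the plasma cell library, and the median gene with at least 5 TPM in both libraries had an uncentred log2 ratio of -0.99, plasma cells over naive B cells. Ratios were therefore centred on that median. Each is the log2 of plasma over naive TPM after adding 1 TPM, and a gene was called lower or higher when the centred ratio reached -1 or 1. The naive library held 36995107 estimated counts and the plasma cell library 43457719. In bulk RNA, fewer cells of a type and less RNA per cell cannot be told apart.

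All 10 members had a lower TPM in the plasma cell library. Together they went from 33043 TPM in the naive library to 7696 TPM in the plasma cell library, or from 3.30% to 0.770% of all TPM. Of the 10, 8 were called lower and 0 higher, against 22.0% lower and 16.0% higher among all 10191 that reached 5 TPM in either library. Their median centred ratio was -2.12, beside -0.23 for all genes past the same filter. H2-Eb1 lay just inside the bound at -1.09 and H2-Ab1 just outside it at -0.99. Every centred ratio of a member stayed below 0 under the 9 other scalings and filters, but the number called ranged from 7, with count-based scalings or without immunoglobulin genes, to 10 without centring. The same decrease was not shared by most genes at high levels. Of the 144 genes at or above 1000 TPM in the naive library, 24 (16.7%) were called lower, and 6 of the 144 were members. Of these members, H2-Aa, H2-Eb1, H2-DMb2 and H2-Ob were among the 24, and Cd74 and H2-Ab1 were not.

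**Figure D1:**
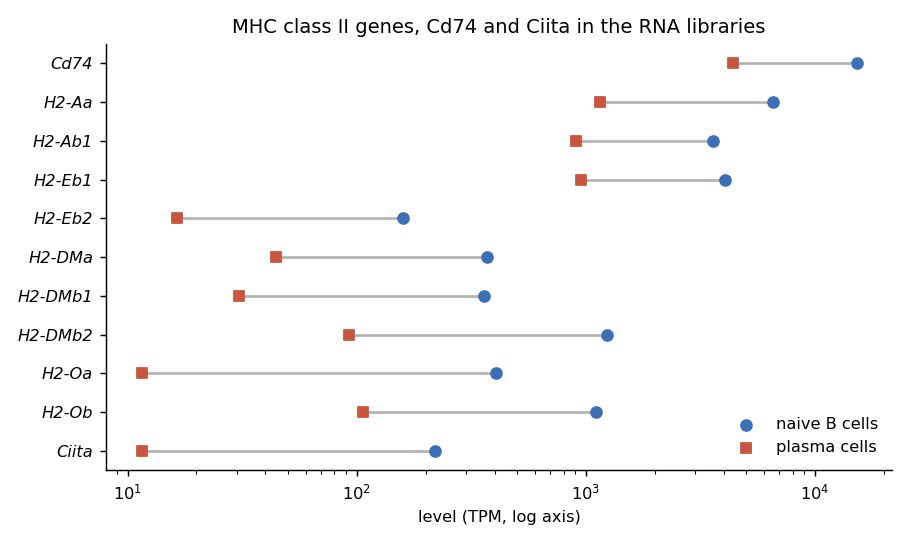
RNA level of each class II gene, of Cd74 and of Ciita in the naive B cell library (circles) and the plasma cell library (squares), in TPM on a log axis. Each plasma cell value lies left of its naive value, from 15218 and 4370 TPM for Cd74 to 405 and 11.5 TPM for H2-Oa.

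Cd74 had the highest level of the family in both libraries, at 15218 TPM (naive) and 4370 TPM (plasma cells). By level it was the third gene of the naive library and number 11 of the plasma cell library. Its centred ratio of -0.81 was the smallest decrease of the 10 and did not reach the bound. The ratio of its estimated counts, centred in the same way, was -0.76 with a 95% Clopper-Pearson interval of -0.76 to -0.75. These intervals cover counting error only, since reads are not independent molecules and no second library exists.

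The classical I-A chains H2-Aa and H2-Ab1, which form the surface class II molecule of this strain, stood at 6568 and 3582 TPM in naive B cells. In plasma cells they stood at 1159 and 910 TPM. H2-Aa was lower by 2.86-fold after centring (ratio -1.51, count interval -1.44 to -1.41), more than its partner H2-Ab1 (ratio -0.99, count interval -0.94 to -0.90). The intervals of the partners do not overlap, and the alpha over beta TPM ratio moved from 1.83 to 1.27. Cd74 over H2-Aa went from 2.32 to 3.77, whereas Cd74 over H2-Ab1 went only from 4.25 to 4.80. The invariant chain transcript was thus in larger excess over H2-Aa in the plasma cell library, and only slightly so over H2-Ab1.

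The I-E beta chain H2-Eb1 went from 4041 to 956 TPM, close to H2-Ab1 in both. Its centred ratio was -1.09. H2-Eb2, a second and little expressed I-E beta gene, went from 159 to 16.5 TPM, with a ratio of -2.20. H2-Eb1 thus exceeded H2-Eb2 by 25.5 times in the naive library and by 58.0 times in the other.

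The H2-DM genes had lower ratios than H2-Aa, H2-Ab1 and H2-Eb1, in the range of H2-Eb2. H2-DMa, the alpha chain, went from 369 to 44.4 TPM, a centred ratio of -2.04. The beta genes H2-DMb1 and H2-DMb2 were at 360 and 1235 TPM in naive B cells and at 30.5 and 92.5 TPM in plasma cells, with ratios of -2.53 and -2.74. Those genes are near copies of each other. In the GENCODE vM21 transcripts 31.4% of the 31-base words of H2-DMb1 also occur in H2-DMb2, so the split of reads between them is uncertain, whereas H2-DMa, H2-Oa and H2-Ob shared no such word with another gene. Summed, the DM beta genes went from 1595 to 123 TPM, a ratio of -2.70, and the summed beta level exceeded H2-DMa by 4.32 times (naive) and 2.77 times (plasma cells).

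H2-DO showed the most unequal pair. H2-Oa, its alpha chain, went from 405 to 11.5 TPM. Its centred ratio of -4.03 (count interval -4.21 to -3.94) was the lowest of the family and number 53 from the lowest among all genes past the filter. H2-Ob, its beta chain, went from 1107 to 107 TPM, a ratio of -2.37. The level of H2-Ob over H2-Oa went from 2.74 to 9.27. Over the sums of the DM and DO genes, alpha and beta chains together, the TPM ratio barely moved, at 1.30 (naive) and 1.42 (plasma cells). Between the alpha chains it did move, with H2-DMa over H2-Oa at 0.912 (naive) and 3.86 (plasma cells).

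Ciita, the coactivator of the family, went from 220 to 11.5 TPM. Its centred ratio of -3.15 was lower than that of every member except H2-Oa. Its symbol covers 2 gene identifiers of the annotation, which were summed.

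Transcripts of single members also differed between the libraries. Cd74 has a short form and a long form whose coding sequence carries 192 more bases (64 codons), and the long form of mouse Cd74 is known to add a domain that inhibits cysteine proteases. Transcripts with the long coding sequence took 12.3% of the naive Cd74 counts (12.2 to 12.4%) and 5.53% of those of plasma cells (5.43 to 5.63%). The long form thus went from 1641 to 209 TPM and the short form from 13577 to 4161 TPM. In H2-Ob, the transcript H2-Ob-001 went from 68.6% to 34.5% of the TPM of the gene. H2-Ob-002, with a shorter coding sequence of 618 bases beside 816, went from 20.9% to 43.4%. This change of form moves H2-Ob between scales, from a ratio of -2.37 in TPM to -2.72 in centred counts. H2-Aa kept its main transcript, H2-Aa-001, at 92.7% and 97.2% of TPM, and H2-Ab1 kept H2-Ab1-001 at 99.7% and 99.6%. These shares rest on the authors' assignment of reads to overlapping transcripts.

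**Figure D2:**
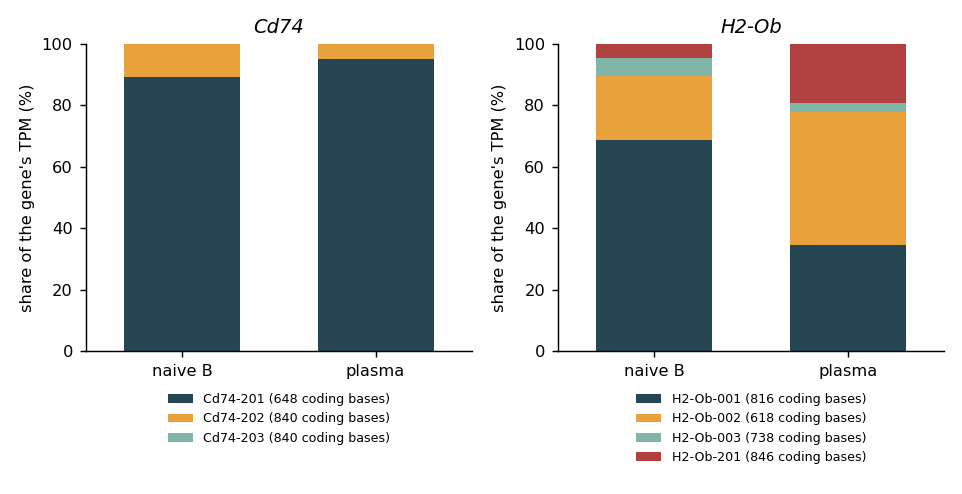
Share of the TPM of Cd74 and of H2-Ob held by each annotated transcript in the naive B cell and plasma cell libraries, with the length of its coding sequence. The long Cd74 form is the smaller part in both libraries, and H2-Ob-002 goes from 20.9% to 43.4%.

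The genes closest to members over the libraries, by distance in log2(TPM + 1), were not antigen presentation genes. The closest to Cd74 were mt-Co1, Gm9846 and mt-Co2, and the closest to H2-Aa were Tmsb4x, mt-Cytb and Actb. With only 2 libraries this likeness covers a level and 1 difference. Actb, an abundant actin gene, went from 4084 to 1271 TPM, a ratio of -0.70 beside -1.51 for H2-Aa. Tmsb4x and mt-Cytb had ratios of -1.28 and -0.80. Beside -0.81 for Cd74, the ratios of mt-Co1, Gm9846 and mt-Co2 were -1.18, 0.11 and -0.90. Some abundant genes outside antigen presentation thus had ratios as low as those of Cd74, H2-Ab1 and H2-Eb1.

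The other genes of the pathway did not follow the members as a block. Counts in these lists stand beside 22.0% lower and 16.0% higher among all genes past the filter. Of 8 regulators that bind the class II promoters or act with Ciita, 3 were called lower and 0 higher, with a median ratio of -0.55. Besides Ciita these were Rfx5, a subunit of the RFX complex (85.0 and 10.1 TPM, ratio -1.96), and Creb1, a factor of the X2 box (38.4 and 8.18 TPM, ratio -1.11). The other RFX subunits, Rfxank and Rfxap, had ratios of 0.22 and 0.50, and the NF-Y subunits Nfya, Nfyb and Nfyc had ratios of -0.73, -0.09 and -0.37. Of 11 transcription factors of the lineage, 4 were lower and 4 higher. Prdm1 went from 2.29 to 249 TPM, Xbp1 from 109 to 939 TPM and Spib, a factor of B cells, from 639 to 8.00 TPM.

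Among 11 endosomal enzymes, 3 were lower and 4 higher, with a median ratio of 0.25 that became -0.73 without centring. Ifi30, a thiol reductase that opens antigens for class II loading, went from 517 to 53.2 TPM (ratio -2.27). The lysosomal proteases Ctsl and Ctsd had ratios of 1.89 and 1.54. Ctss, the protease that trims the invariant chain in B cells, had a ratio of -0.15. Of 3 genes of class II turnover, the ligase March1, which marks class II for degradation, went from 151 to 1.14 TPM (ratio -5.16). Cd83, which protects class II from March1, went from 244 to 35.5 TPM (ratio -1.76), and March8 stayed under 5 TPM in both libraries.

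Of 8 costimulatory genes 7 passed the filter, and 4 of them were lower and 1 higher. Icosl, the ligand of ICOS, went from 303 to 0.494 TPM, Pdcd1lg2, a ligand of PD-1, from 18.2 to 0.617 TPM, and Cd80, a ligand of CD28, from 5.41 to 14.2 TPM. The 19 genes of class I presentation gave a different count, with 0 lower, 7 higher and a median ratio of 0.76. Without centring that median was -0.23. The light chain B2m went from 2862 to 4067 TPM, and the chaperones Calr and Pdia3 had ratios of 2.34 and 2.35. Tap1, Tap2, Psmb8 and Psmb9, whose genes lie between the DM genes and H2-Ob, had ratios of 0.53, 0.15, 0.27 and 0.92. Of 16 other measured neighbours of the class II region that passed the filter, 4 were lower and 3 higher, with a median of -0.36. These counts lie near the shares over all genes (22.0% and 16.0%), and nothing particular to the neighbours is read from them. The lowest of the neighbours was Rgl2 at -2.44 and the highest were Slc39a7 at 2.34 and Ppt2 at 1.26.

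**Figure D3:**
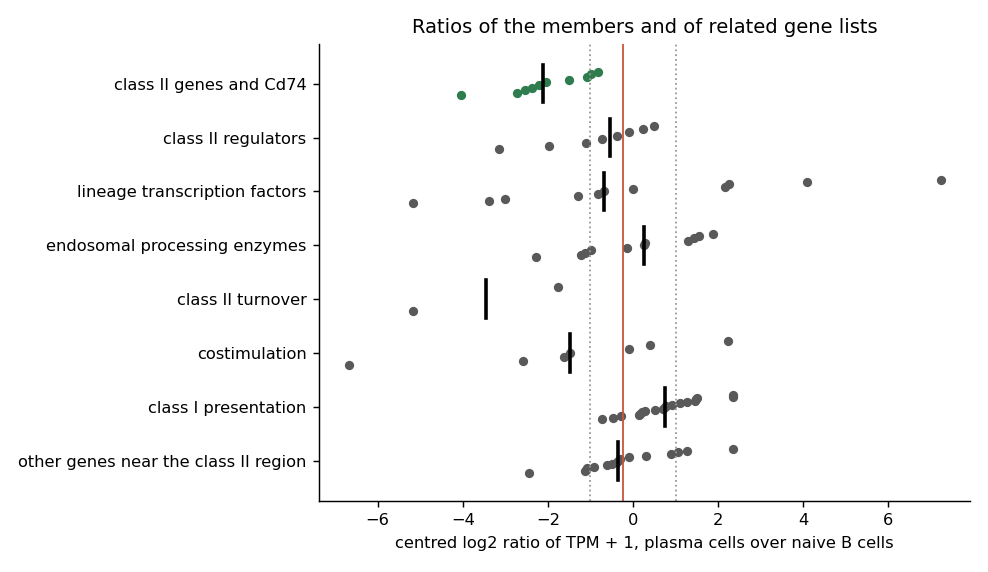
Centred log2 ratios of TPM + 1, plasma cells over naive B cells, for the 10 members (green) and the genes of 7 related lists that passed the filter (grey). Black bars are the list medians, the red line is the median of all genes past the filter (-0.23) and the dotted lines are the bounds of -1 and 1. The members run from -4.03 to -0.81 and the class I presentation list has 0 genes below -1.

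Markers of the labelled cells were checked in the same libraries. Of 9 measured naive B cell markers 8 were lower in plasma cells, among them Fcer2a (the gene of CD23, 1062 and 6.78 TPM), Faim3 (ratio -4.54) and Cr2 (491 and 19.3 TPM). Of 10 plasma cell markers 9 passed the filter and 7 were higher, with Derl3 at 12.3 and 264 TPM and Fkbp11 at 6.92 and 122 TPM. Tnfrsf17 stayed under 5 TPM in both libraries, at 2.24 and 1.68 TPM. Sdc1, which encodes CD138, went from 11.1 to 5.38 TPM, a centred ratio of 0.06. Macrophages and dendritic cells also express class II genes. The 8 monocyte and macrophage markers summed to 172 TPM (naive) and 16.3 TPM (plasma cells), with Lyz2 at 55.2 and 0.240, Csf1r at 42.5 and 0.0140 and Emr1 at 19.2 and 0.170 TPM. The 8 dendritic cell markers summed to 15.0 and 35.8 TPM, of which Flt3 took 2.50 and 30.2 TPM, and Clec9a and Cd209a were listed at 0 in plasma cells. The 7 T cell markers summed to 84.5 and 3.62 TPM, with Lck at 46.0 and 2.49, Cd3d at 6.21 and 0.530 and Trbc2 at 18.0 TPM in the naive library and listed at 0 in the other. The part of such cells in the class II levels was not tested.

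In the ATAC peak lists the class II window held 23 naive and 26 plasma cell peaks. They covered 55.0 and 60.4 kb. Of the naive peaks 8 (34.8%) overlapped no plasma cell peak, beside 31.3% of all 29868 naive peaks. Of the plasma cell peaks 11 (42.3%) overlapped no naive peak, beside 33.2% of all 30475. These shares lie near the background, and nothing particular to the window is read from them. With a minimum score of 100, the peaks found in 1 list alone were 6 of 18 (naive) and 4 of 16 (plasma cells). Peak scores are the authors' own and rank peaks within a list, and the lists hold no signal where no peak was called. The scores of the overlapping peaks did differ from the background. Their median in the window was 370 in the naive list and 248 in the plasma cell list. Over all overlapping peaks the medians were 327 and 385. The cause of this difference was not tested. Gene positions in mm9 are approximate, from general knowledge in steps of 10 kb, and the windows drawn around groups of genes were set after the peaks had been seen.

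The DM genes, at about 34.27 to 34.29 Mb, had 3 peaks in each list and all of them overlapped. In naive B cells these were chr17:34271808-34273430, chr17:34279405-34283158 and chr17:34288997-34291151, with scores of 533, 680 and 370. H2-Ob, at about 34.38 Mb, likewise had its highest naive peak (chr17:34374927-34377734, score 546) matched by a plasma cell peak of score 277. At H2-Eb2, about 34.46 Mb, the naive peak chr17:34461666-34464243 (score 403) overlapped a plasma cell peak of score 126. The RNA of these genes differed by 4.11-fold to 6.67-fold after centring. Their peaks were called in both lists but ranked lower in the plasma cell list. The DM peaks stood at percentiles 79.2, 87.2 and 66.8 of the naive scores and 66.9, 57.7 and 49.8 of the plasma cell scores. The named peak of H2-Ob stood at percentiles 80.1 and 53.2, and that of H2-Eb2 at 69.8 and 29.8. This lower rank was not particular to these genes, since every overlapping peak of the window ranked lower in the plasma cell list. Among the class I processing genes, chr17:34323453-34325558 stood at percentiles 82.7 (naive) and 69.1 (plasma cells). The peak chr17:34483849-34485855, outside the members, stood at 98.3 and 80.9.

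Peaks without an overlap lay at the I-A genes, near H2-Eb1, at H2-Oa, at H2-Ob and at Cd74. The I-A group had 3 peaks in each list, and 2 of the 3 were found in 1 list alone on each side. In plasma cells these were chr17:34397875-34402865 (score 266), which covers the approximate start of H2-Ab1 at 34.40 Mb, and chr17:34423268-34425719 (score 222), near that of H2-Aa at 34.42 Mb. In naive B cells they were chr17:34404404-34409787 (score 82.2) and chr17:34428021-34431550 (score 317). The naive list had no peak that touched either plasma cell interval, although both genes had their higher RNA level there. H2-Oa had chr17:34228846-34230263 (score 216) in the naive list alone, at its approximate start of 34.23 Mb, and the weaker chr17:34235240-34236610 (score 50.6) in the plasma cell list alone. At H2-Ob, chr17:34371489-34372890 (score 56.2) was in the plasma cell list alone. Around Cd74 both lists held an overlapping peak, and chr18:60962251-60969167 (score 307), near the approximate start at 60.96 Mb, was in the plasma cell list alone. Near H2-Eb1, at about 34.44 Mb, the plasma cell list alone held chr17:34435565-34439244 (score 176) and chr17:34441193-34444228 (score 53.5, close to the lowest of that list at 50.0). With positions known only to about 10 kb, which peak belongs to the start of a gene was not determined.

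**Figure D4:**
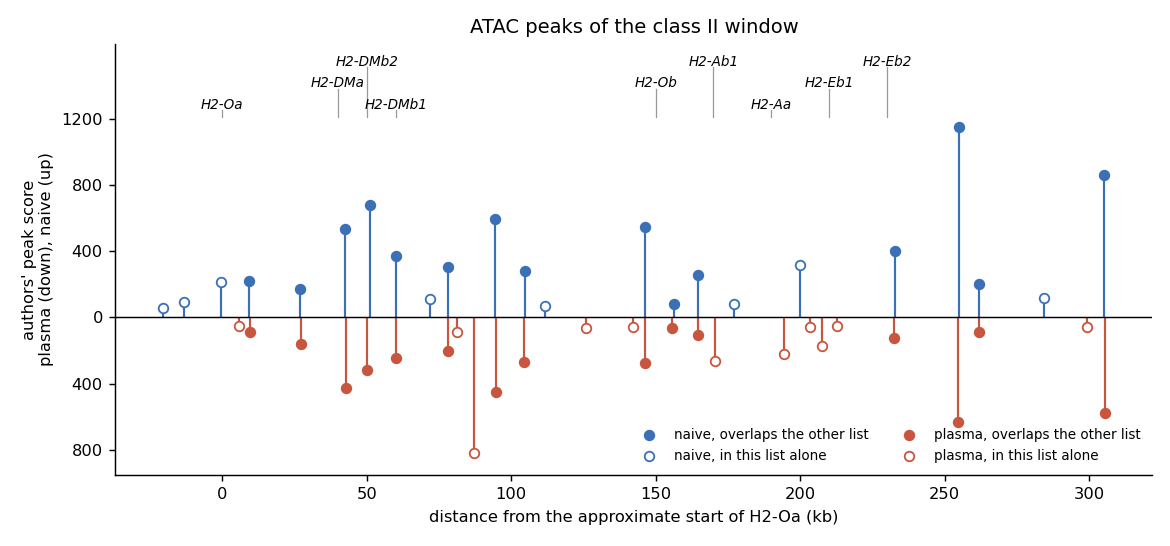
ATAC peaks of the class II window by distance from the approximate start of H2-Oa in kb, with naive peaks drawn up and plasma cell peaks drawn down by the authors' score. Filled points overlap a peak of the other list and open points do not, and gene names mark approximate starts. The 3 DM peaks are filled in both lists. Of the 11 open plasma cell points, 2 sit at H2-Ab1 and H2-Aa, and the highest (score 821) lies between the DM genes and H2-Ob.

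The highest peaks of the window lay outside the members. In naive B cells the highest was chr17:34483849-34485855 (percentile 98.3 of the scores of its list), and in plasma cells it was chr17:34315768-34318487 (score 821, percentile 89.5). The latter lies among the class I processing genes between the DM genes and H2-Ob and overlapped no naive peak. At Ciita on chromosome 16 the naive list held 5 peaks and the plasma cell list 2. Of these, 3 naive and 0 plasma cell peaks overlapped no peak of the other list, beside 31.3% and 33.2% of all peaks. These counts are too small to set against those shares. The highest naive peak there, chr16:10515345-10517225 (score 530), had no plasma cell counterpart. The overlapping peak chr16:10487219-10489121 scored 231 (naive) and 290 (plasma cells), at percentiles 52.7 and 54.7. The other overlapping peak, chr16:10498715-10500226, scored 149 and 80.4.

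Contacts were read from the authors' balanced TCC maps in bins of 2 Mb. The bin of the chromosome 17 members rested on 63475 naive and 64224 plasma cell read pairs, which were recovered from the 500 kb maps. Contacts with other chromosomes made up 33.2% of its naive total and 24.8% of its plasma cell total, a difference of -8.38 percentage points. As read pairs before balancing the shares were 34.8% (34.4 to 35.1%) and 25.9% (25.5 to 26.2%). The median of 1286 bins moved from 24.3% to 19.7%, and 90.8% of all bins had a lower share in plasma cells, as did 46 of the 47 bins of chromosome 17. The change of the class II bin stood at percentile 9.49 of all bins from the largest decrease. Within chromosome 17 it was near the middle, since 18 of the other 46 bins had a larger decrease and the median of the chromosome was -7.96 percentage points. A lower share between chromosomes was thus general, and its size at the class II bin was close to that of the chromosome.

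The contacts that remained between chromosomes were less concentrated in plasma cells. Values are in multiples of the mean contact between bins of different chromosomes in the same map. In both maps the same 3 partners ranked highest. The bin at 4 to 6 Mb of chromosome 19 stood at 30.0 times the mean in the naive map (446 read pairs) and 11.3 times in the plasma cell map (139 read pairs). The next bin of chromosome 19, at 6 to 8 Mb, stood at 20.9 and 10.1 times the mean, and the bin at 78 to 80 Mb of chromosome 15 at 15.7 and 9.48 times. Of 1239 partner bins, 133 exceeded 3 times the mean in the naive map, 112 did in the plasma cell map and 91 in both. Among all pairs of bins those shares were 1.89% and 2.33%, lower in naive B cells than in plasma cells.

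By single partner, 105 bins (8.47%) had a contact at least 2-fold lower with the class II bin in plasma cells and 191 (15.4%) at least 2-fold higher. Over all 783071 pairs of bins between chromosomes these shares were 12.7% and 13.0%. Most of these bins had few read pairs. Among the 203 partners with at least 50 read pairs in the maps together, a limit applied to these counts after seeing the data, the order was the opposite, with 28 (13.8%) at least 2-fold lower and 5 (2.46%) at least 2-fold higher. Over all 46803 pairs of bins with that many read pairs the shares were 7.70% and 6.24%. Among these 203 partners the largest losses were with 142 to 144 Mb of chromosome 5 (75 and 17 read pairs, log2 ratio -1.74), 8 to 10 Mb of chromosome 19 (-1.66) and 132 to 134 Mb of chromosome 7 (-1.62). The largest gains were with 30 to 32 Mb of chromosome 6 (16 and 49 read pairs, log2 ratio 1.72), 112 to 114 Mb of chromosome 13 (1.65) and 28 to 30 Mb of chromosome 6 (1.24). By whole chromosome the mean contact was lowest in ratio with chromosome 19 (4.41 and 2.36 times the mean, log2 ratio -0.90) and highest with chromosome 6 (0.820 and 1.11 times, log2 ratio 0.43). Chromosomes 15 and 11 had log2 ratios of -0.49 and -0.46.

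**Figure D5:**
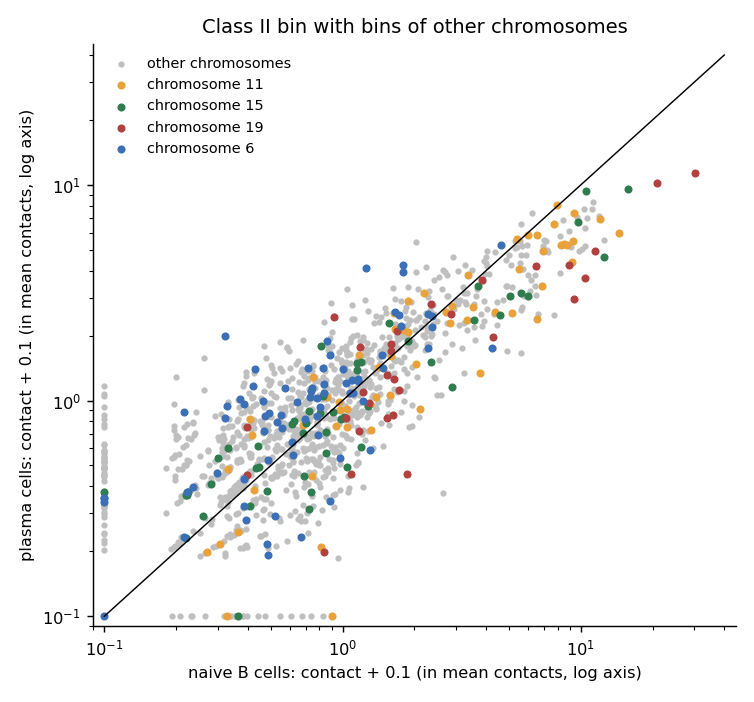
Contact of the class II bin with 1239 bins of other chromosomes in naive B cells (x axis) and plasma cells (y axis), in multiples of the mean contact plus 0.1, on log axes, with the diagonal drawn. The highest points, on chromosomes 19 and 15, lie below the diagonal, as with the top bin at 30.0 and 11.3.

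The contacts of the class II bin with the bins of its coactivator and of the invariant chain were above the mean but not among the highest, at ranks 143 and 174 of the naive map. With the bin of Ciita, at 10 to 12 Mb of chromosome 16, it stood at 2.76 times the mean in the naive map (40 read pairs) and 2.44 times in the plasma cell map (30 read pairs), a log2 ratio of -0.17. With the bin of Cd74, at 60 to 62 Mb of chromosome 18, it stood at 2.25 times (31 read pairs) and 1.89 times (22 read pairs), a log2 ratio of -0.24. Scaled to all read pairs of the class II bin with other chromosomes, the counting intervals of the read pair ratios ran from -0.74 to 0.71 for Ciita and from -0.94 to 0.75 for Cd74, so a change was not detectable at this depth. In the authors' deposited tables of interactions at 1 Mb, neither pair was listed in either cell type. In these tables the 1 Mb bin at 34 Mb had 195 listed interactions between chromosomes for naive B cells and 168 for plasma cells, and 119 were in both (61.0% and 70.8% of each list).

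Within chromosome 17 the class II bin did not follow the mean of its chromosome at long range. The contacts by distance given here are the authors' balanced values, not multiples of the mean between chromosomes. At 22 to 40 Mb the class II bin went from 2.29 to 2.98, a log2 ratio of 0.38. The chromosome mean at that range was 8.27 and 7.63, a log2 ratio of -0.12. At distances over 40 Mb the value of the class II bin went from 1.34 to 1.65 (671 and 834 read pairs), a log2 ratio of 0.30. The mean over all pairs of chromosome 17 bins more than 40 Mb apart was 6.45 and 2.72, a log2 ratio of -1.25. These ranges are unlike, since the partners of the class II bin end at 60 Mb and other bins have more distant ones. Each bin of chromosome 17 was also taken with its own partners over 40 Mb away. In the naive map no bin then had a lower mean contact than the class II bin. In the plasma cell map the class II bin stood at percentile 6.38 of them. At 2 to 4 Mb the bin stood at 25.2 and 27.8 (log2 ratio 0.15) beside a chromosome mean of 35.6 and 47.0 (0.40). At 6 to 10 Mb it went down, from 14.9 to 13.5 (-0.13), beside 12.4 and 15.2 for the chromosome (0.29). At 12 to 20 Mb it went from 3.62 to 4.66 (0.37), close to the chromosome ratio of 0.28. On the first component of the 500 kb contact correlation of chromosome 17, with its sign set so that bins rich in ATAC peaks are positive, the bin from 34 to 34.5 Mb went from 1.22 in the naive map to 1.59 in the plasma cell map. It thus lay on the side of open chromatin in both maps, and the component of all 185 bins had a Pearson r of 0.97 between the maps, given as a description since bins share a chromosome and a library.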

How the data were processed

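The members and gene lists were chosen with earlier results of these data known. Per the submitters' processing notes, the data were processed on mm9 with tools that include Bowtie, TopHat, HOMER, Picard, MACS 1.4 and kallisto, with no role stated for each. The authors deposited estimated counts and TPM per transcript from kallisto, per the file headers. These were summed by gene symbol. Symbols missing from the files were matched through RefSeq synonyms. Estimated counts were rounded for intervals. The ATAC files hold the authors' peaks with a score per peak, whose scale is not stated in the sources used here. The deposited contact maps hold KR-balanced signal per bin, per the labels, and were averaged over both triangles. The deposited interaction lists hold read counts, expected counts and a z score per pair of 1 Mb bins. Read pairs were recovered from the 500 kb maps, where 99.9998% and 99.9997% of the values came out whole within 0.05, and they equalled the listed counts in 404 of 404 and 345 of 345 interactions. A contact ratio was taken after adding 0.1 of the mean contact. Peaks overlapped when they shared at least 1 base.

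The text names all members, Ciita, up to 3 genes per list with the largest ratio among those with at least 5 TPM, the genes closest to Cd74 and H2-Aa, and the 3 contact partners at each end of the contact ratios. Further genes and single peaks named with values (such as Ctss, Tap1 and Sdc1) were chosen after their values were seen. Samples of histone marks were not analysed here. The calculations were tested on simulated data. Python 3.11.15, pandas 2.3.3, numpy 2.4.6, scipy 1.17.1, edgeR 4.0.16 (TMM factors only) and DESeq2 1.42.0 (size factors only) were used.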

Additional observations from a re-analysis of the deposited data

How the results depend on the processing

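No paired analysis was possible because each cell type has 1 library per assay, and no library could be left out. The number of members called lower was 8, and 7 to 10 under the 9 alternatives. All 90 member ratios under these alternatives were below 0, with Cd74 between -1.80 and -0.39 and H2-Oa between -5.02 and -3.62. The median of the members, -2.12, became -3.11 without centring, -1.75 with TMM factors, -1.72 with DESeq2 size factors and -2.02 without immunoglobulin genes. Over all genes, 2242 were called lower, 1234 with a pseudocount of 5 TPM and 5870 without centring (57.6% of those tested). Medians of lists changed sign for endosomal enzymes (-0.73) and class I presentation (-0.23) without centring, and for the neighbours of the class II region with DESeq2 size factors (0.0228). With a score of at least 100 the plasma cell list had 16 peaks in the window and 4 found there alone. The whole 2 Mb bin held 94 naive and 99 plasma cell peaks. Dividing by the mean contact between those chromosomes turned the contact ratios with Ciita and Cd74 to 0.00975 and 0.0258. With at least 50 read pairs, an alternative chosen after seeing the data, the partner bins at least 2-fold lower or higher were 28 and 5 in place of 105 and 191. The component was 0.36 higher in plasma cells at 500 kb and 0.18 higher at 2 Mb. The cause of these changes was not tested. For single genes, lists and groups of peaks, 98 of the other values moved and 100 did not.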
